A study of Oncorhynchus mykiss with 42 samples.

Results

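The response of stage I-II rainbow trout testis to follicle-stimulating hormone (FSH) was measured by comparing 6 arrays of fragments cultured with FSH against 6 arrays of fragments cultured without hormone (Ctrl). These 12 arrays were chosen by their labels alone, from 42 arrays in the series. Whole testes came from an all-male population of rainbow trout (Oncorhynchus mykiss). FSH fragments received 500 ng/mL of a purified salmonid preparation for 96 h at 12 °C, and Ctrl fragments spent the same time in the medium without gonadotropin. In both groups the medium was a modified L15 with 2% Ultroser SF, 300 µL per well, replaced at 48 h. Values from the 6 other groups are set beside them. These are 6 arrays of stage I-II fragments given 500 ng/mL of purified salmonid luteinising hormone (LH), 6 arrays each of stage III fragments cultured in the same way with FSH, with LH or without hormone, and 3 arrays each of stage I-II and stage III testis before culture (T0). Fragments held every cell type of the testis that survived culture. The labels give 6 replicates per cultured condition and 3 per T0 group, and do not tie them to fish. The p-values therefore measure the spread between these samples, which may be technical.

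FSH and LH are the pituitary hormones that drive the testis. FSH acts through a receptor carried mainly by Sertoli cells, the somatic cells that surround and nourish the germ cells, and signals largely through cyclic AMP. LH acts on Leydig cells, which make androgens, and in salmonids FSH also stimulates steroid production. Immature trout testes contain mostly spermatogonia and somatic cells, and germ cell proliferation and differentiation follow as the stages advance. A question put by the design is which transcripts respond to each gonadotropin.

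Each array measured polyadenylated RNA through cDNA labelled with radioactive phosphorus (33P), made from 5 µg of total RNA of 1 sample. The spotted cDNA clones are known here by ID only. The files do not pair the clones with genes, so the arrays could not be checked against testis or cell type markers, no pathway could be counted and no sequence is shown. The deposited log2 table held values for 8175 clones, between 3.86 and 15.04, with array medians of 7.15 to 7.17. A difference of 1 on this scale is a 2-fold difference in signal. Since whole fragments were measured, fewer cells of a type and less RNA per cell cannot be told apart.

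FSH changed 140 of the 8175 clones in stage I-II (1.71%) at a limma adjusted p under 0.05, with 657 clones under an unadjusted p of 0.05. Of these, 91 were higher with FSH (1.11% of clones) and 49 were lower (0.599%). Rises were larger than falls at the extreme. A pair of clones rose about 10-fold, the next rise was 3.66-fold, and the greatest fall was 2.99-fold. The median change of all 8175 clones was -0.0067 on the log2 scale.

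**Figure D1:**
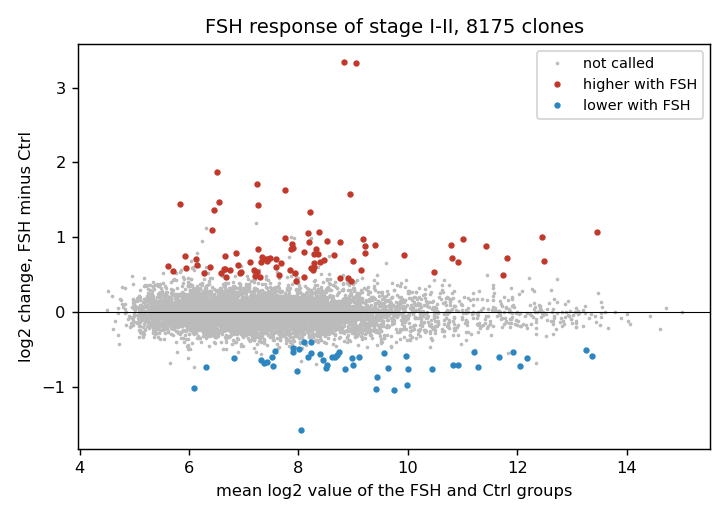
Change with FSH in stage I-II (log2, FSH minus Ctrl, vertical axis) against the mean log2 value of both groups (horizontal axis), 1 point per clone. Among 8175 clones, 91 called higher are red and 49 called lower are blue; a pair of clones stands alone at a change of about 3.3.

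Clone 1rt34l03_b_f02 showed the greatest rise. Its log2 value ran from 10.29 over a median of 10.43 to 11.01 on the 6 FSH arrays, and from 6.66 over 6.86 to 8.93 on the 6 Ctrl arrays. Every FSH array lay above every Ctrl array, and 5 of the Ctrl arrays lay at or below 6.92. Group means were 10.51 ± 0.27 with FSH and 7.17 ± 0.87 in Ctrl (SD, n = 6 each). The change was 3.34 ± 0.22 (SE), or 10.1-fold (95% interval 7.42 to 13.7), with a limma adjusted p of 1.25e-15. The value of 8.93 stood on Ctrl replicate 19 only, and the scanner file of that array did not show it. There the position paired with the clone read 158 intensity units, against 91 to 147 on the other Ctrl arrays and 1453 to 2456 on the FSH arrays. Without Ctrl replicate 19 the rise was 3.69 on the log2 scale, 12.9-fold, with a limma adjusted p of 7.21e-23. The scanner signals of all 12 arrays gave 13.2-fold. Ctrl readings of this clone stood near the background level of the Ctrl arrays, 77.3 to 99.6 intensity units. No background was subtracted from the scanner signals, so this fold value is limited by that floor.

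Clone tcbk0013.j.13 rose by nearly the same amount. Its values were 10.46, 10.64 and 11.30 with FSH (lowest, median and highest of 6 arrays) and 7.03, 7.38 and 7.81 in Ctrl. The lowest FSH array and the highest Ctrl array were far apart. The change was 3.33 ± 0.17 (SE), 10.1-fold (95% interval 7.99 to 12.7), with a limma adjusted p of 4.56e-20. Its paired scanner position read 1668 to 2842 intensity units with FSH, against 127 to 379 in Ctrl.

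Before culture the leading clones differed from each other. On the 3 T0 arrays 1rt34l03_b_f02 ran from 6.89 to 7.55, with a mean of 7.22. Its Ctrl mean of 7.17 included the value of 8.93 on replicate 19, and its Ctrl median was 6.86. On the T0 arrays tcbk0013.j.13 ran from 5.25 to 6.17, which was not above background on any of them. Its Ctrl arrays after 96 h all lay above these values, and its FSH arrays lay above both.

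The greatest fall was that of tcac0002.e.17. Its values were 6.94, 7.23 and 7.58 with FSH (lowest, median, highest) and 8.68, 8.82 and 9.02 in Ctrl, and the groups did not overlap. The change was -1.58 ± 0.14 (SE; 95% interval -1.86 to -1.30), a level 2.99-fold lower with FSH, with a limma adjusted p of 1.21e-11. The T0 arrays lay at 8.67 to 9.09, close to the range of Ctrl and far above FSH. A touching spot was 4.58 times as bright as this clone, and the part of that spot in the change was not tested. The paired scanner position gave 129 to 192 intensity units with FSH, against 399 to 678 in Ctrl.

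Clone tcam0002.g.21 followed, with 8.78, 9.24 and 9.59 with FSH and 10.09, 10.18 and 10.76 in Ctrl. Again no FSH array reached the Ctrl range. The change was -1.04 ± 0.13 (SE; 95% interval -1.29 to -0.78), 2.05-fold lower with FSH, with a limma adjusted p of 1.18e-07. Its T0 arrays ran from 8.40 to 9.02. Every Ctrl array thus lay above the uncultured testis for this clone, and the FSH mean of 9.22 ± 0.26 lay between the Ctrl mean of 10.26 ± 0.25 (SD, n = 6 each) and the T0 mean of 8.80 ± 0.35 (SD, n = 3).

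**Figure D2:**
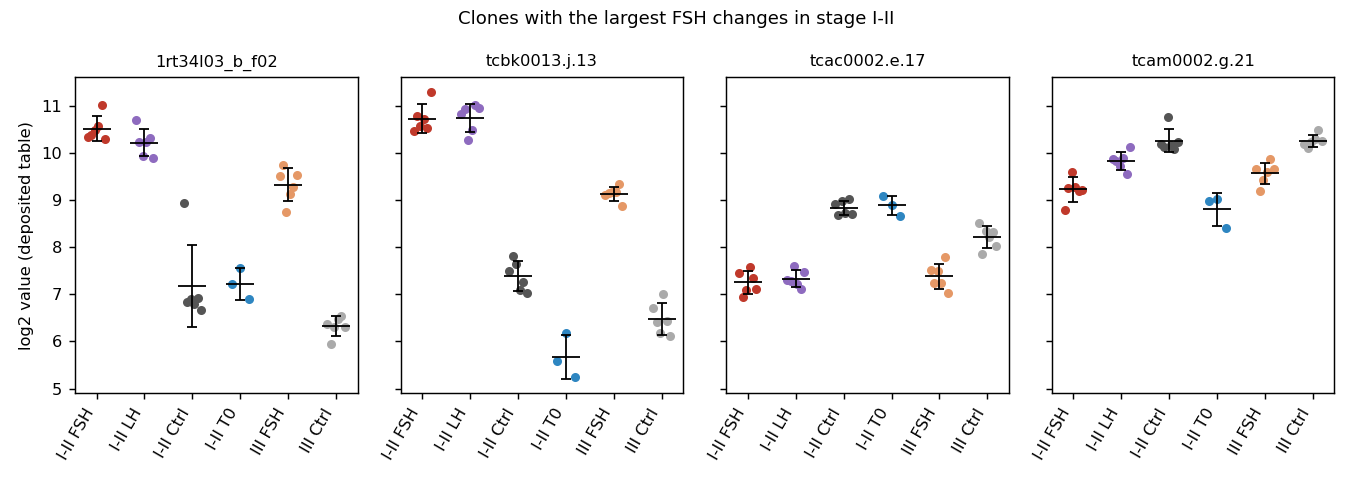
Log2 values of the 4 clones with the greatest rises and falls with FSH in stage I-II, 1 point per array, with mean and SD as bars, for stage I-II FSH, LH, Ctrl and T0 and for stage III FSH and Ctrl. The 6 FSH arrays of stage I-II lie beyond all 6 Ctrl arrays in each panel; 1 Ctrl array of 1rt34l03_b_f02 stands at 8.93.

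Most of the changes were small. The 91 rises had a median of 0.71 on the log2 scale (1.64-fold), with the middle of the list between 0.57 and 0.91 and a range of 0.42 to 3.34. There were 16 rises of at least 2-fold, 49 between 1.5-fold and 2-fold and 26 below 1.5-fold. The 49 falls had a median of -0.62 (1.53-fold lower) and ranged from -1.58 to -0.40. Only 4 falls reached 2-fold, 31 lay between 1.5-fold and 2-fold and 14 were smaller. Across all clones 23 changed by at least 2-fold, and 3 of these were not called.

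Separation between groups was common but not complete. For 71 of the 91 rises every FSH array lay above every Ctrl array, where 1.11% of all 8175 clones did so. For 32 of the 49 falls every FSH array lay below every Ctrl array, against 0.709% of all clones. The lists were chosen on the same contrast, so nothing is read from these counts.

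The clones that rose spanned dim and bright spots. Their mean log2 values were 5.92 or higher with FSH, with a median of 8.28, and ran from 5.12 to 12.93 in Ctrl, with a median of 7.43. On all 12 arrays 72 of the 91 were above background, the level set on each array by the positions taken as water spots. For 12 clones no Ctrl array was above background, while 85 were above it on all 6 FSH arrays, and 1 clone was above it on no array of either group. The fallen clones had mean values of 5.58 to 13.08 with FSH, with a median of 8.42, and of 6.60 to 13.67 in Ctrl, with a median of 9.0. Of these, 46 of the 49 were above background on all 12 arrays. For 2 of them no FSH array was above background. Among all 8175 clones, 64.7% were above background on all 12 arrays.

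Calls were more frequent among bright clones. Clones were cut into 4 bins of equal size by their mean level. Among the 2044 dimmest, 9 rose and 2 fell (0.538%). In the next bins 22 rose and 2 fell (1.17%), then 26 rose and 13 fell (1.91%). Among the 2044 brightest, 34 rose and 32 fell (3.23%). Rises thus outnumbered falls in the dimmer bins and were close to them in number in the brightest.

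Calls also differed between series of clones, grouped by the letters that open their IDs. In the largest, 1rt, 30 clones rose and 11 fell among 2834 (1.45%). In tcbk 20 rose and 8 fell among 1888 (1.48%), and in tcay 16 rose and 4 fell among 1386 (1.44%). The share was higher in tcad, where 10 rose and 8 fell among 439 (4.10%), and in tcac, where 6 rose and 4 fell among 255 (3.92%). In the small series tcaa 2 rose and 3 fell among 99 (5.05%), and in tcab none of 87 was called. IDs outside the 10 larger series held 4 falls and no rise among 75 (5.33%). The median level on the log2 scale was 7.54 for tcad, 7.46 for tcac, 8.10 for tcaa and 7.47 for the other IDs, against 7.13 for 1rt and 7.06 for tcbk. It was also above that of 1rt and tcbk in series with low shares, namely 7.65 for tcab, 7.41 for tcav (1.39% called) and 7.39 for tcbi (0.730% called). The part of brightness in these shares was not tested, nor was the difference between series. The sources used here do not say what the letters stand for.

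The scanner files gave the same directions. In signals quantile normalised from the scanner column, all 91 clones that rose in the table were higher with FSH and all 49 that fell were lower, with medians of 0.69 and -0.64. Fitted on their own the scanner signals called 227 of the 8175 clones in limma, which held 137 of the 140. Table and scanner files are of the same arrays, and clones were paired with scanner positions through their profiles over the 42 arrays. This agreement is therefore largely built in and is not a second measurement. Among the 1680 values of the 140 clones on the 12 arrays, 1 differed by more than 1 log2 unit between table and scanner, and this was the value of 8.93 described above. Some arrays of other groups differed more often. Over all clones there were 129 such values on stage I-II T0 replicate 2 and 110 on stage III FSH replicate 61. Stage III LH replicate 67 had 152 and stage III Ctrl replicate 58 had 97, against at most 8 on any of the 12 arrays.

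The arrays themselves were not alike in how evenly they hybridised. The median over clones of the SD between arrays was 0.23 with FSH and 0.18 in Ctrl. Pairs of FSH arrays differed by a root mean square of 0.278 to 0.473, with a median of 0.398 over 15 pairs, and pairs of Ctrl arrays by 0.251 to 0.321, with a median of 0.302. Pairs of 1 FSH and 1 Ctrl array lay between, with a median of 0.368. FSH arrays thus differed more from each other than from Ctrl arrays at these medians.

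Part of the spread ran with position on the array. Differences between blocks held 19.7% to 55.6% of the variance of each FSH array around the mean of the FSH and Ctrl means of each clone, against 13.4% to 31.2% on the Ctrl arrays. The median deviation of clones in the last 48 spot columns, minus that in the first 48, was 0.14, -0.54, -0.46, 0.40, 0.28 and -0.27 on FSH replicates 25 to 30. It lay between -0.06 and 0.25 on the 6 Ctrl arrays. FSH arrays tilted both ways, with a mean of -0.08 ± 0.40, against 0.08 ± 0.12 in Ctrl (SD, n = 6 each; exact two-sided permutation p = 0.3745). The median change with FSH was -0.10 in the last 48 columns and 0.06 in the first 48. In the first 48 columns 22 clones rose and 5 fell among 1983 (1.36%), and in the last 48 columns 15 rose and 19 fell among 2090 (1.63%). Between them 20 rose and 19 fell among 2031 (1.92%), and 34 rose and 6 fell among 2071 (1.93%). These shares stood near the 1.71% of all clones, while the split between rises and falls varied and was not tested. When block medians were made equal within each array, 211 clones were called, 128 of the 140 among them.

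**Figure D3:**
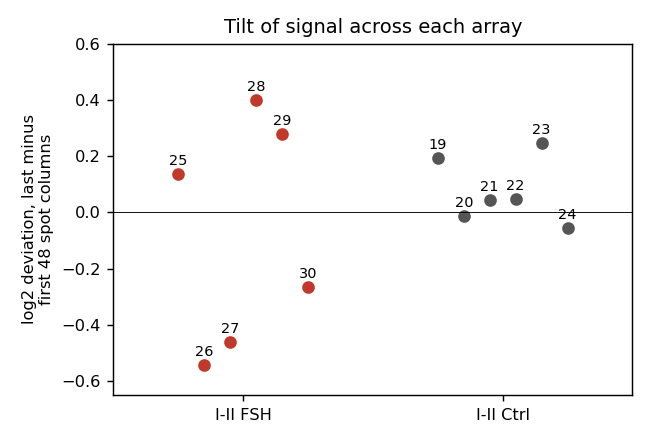
Tilt of each stage I-II array: median log2 deviation of clones in the last 48 spot columns minus that in the first 48, 1 point per array with its replicate number, FSH left and Ctrl right. FSH arrays spread from -0.54 to 0.40, Ctrl arrays from -0.06 to 0.25.

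Other measures of the arrays were set beside the result. The median clone signal was 153 ± 15.3 intensity units with FSH and 152 ± 15.3 in Ctrl (SD, n = 6 each; exact two-sided permutation p = 0.874). The 128 positions taken as a repeated control spot read 199 ± 25.3 with FSH and 285 ± 69.9 in Ctrl (exact two-sided permutation p = 0.00649). They read 124.5 ± 18.4 on the stage I-II LH arrays and 730 ± 206 on the T0 arrays of that stage (SD, n = 6 and 3). The LH arrays (103.5 to 148) did not overlap the FSH arrays (178 to 236.5). With the level of these spots as a covariate 116 clones were called for FSH against Ctrl, 112 of them among the 140. FSH against LH then gave 1 call. As the FSH and LH arrays did not overlap in this level, the fit can hardly separate it from the hormone. The 2 clones called higher with FSH than with LH without the covariate differed by 0.74 and 0.88 with it, beside 0.80 and 0.79. The 3 called lower differed by -0.60, -0.53 and -0.57, beside -0.65, -0.60 and -0.53. The loss of calls is thus not read as an effect of the control level. The part of these spots in the results was not otherwise tested. A spot more than 4 times as bright touched 34 of the 91 rises and 17 of the 49 falls, against 52.7% of all clones. In 15 and 9 of these cases such a brighter spot was itself called in the same direction, where 1.11% and 0.599% of all clones were called higher and lower. Those shares are for single clones of any brightness, while a clone can touch several brighter spots, so they are not like for like. With every clone that touched such a spot left out, 95 of 3865 clones were called, 89 of them among the 140. Those 89 are all the clones of the 140 that touched no such spot. Leaving clones out does not alter the values of the rest, so nothing on the part of brighter spots is read from this count.

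The same contrast was available at stage III, on arrays that share none with stage I-II. There FSH changed 113 clones at a limma adjusted p under 0.05 (1.38%), of which 63 were higher (0.771%) and 50 lower (0.612%). Of the 91 clones that rose in stage I-II, 90 were also higher with FSH in stage III, where 49.7% of all clones were. Of the 49 that fell, 48 were also lower, where 50.1% of all clones were. Calls in the same direction were made for 38 of the 91 rises, which is 41.8% of that list and 60.3% of the stage III list. For the falls they were made for 32 of 49, which is 65.3% of that list and 64.0% of the stage III list. No clone was called in opposite directions. All these calls came from the same fit, in which groups shared each clone's estimate of spread, so calls at both stages are not independent. With only the compared groups fitted, stage III gave 59 calls, 57 of them among the 113.

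Sizes in stage III differed between the lists. The median stage III change was 0.45 over the 91 clones that rose, with a range of -0.06 to 3.00, beside 0.71 in stage I-II. It was -0.60 over the 49 that fell, with a range of -1.04 to 0.07, beside -0.62 in stage I-II. The lists were chosen at stage I-II, which favours larger values there. Over all clones the median stage III change was -0.0017.

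The leading clones kept their directions at stage III. For 1rt34l03_b_f02 the values were 8.75, 9.40 and 9.75 with FSH (lowest, median, highest) and 5.94, 6.34 and 6.54 in Ctrl, an 8-fold rise (limma adjusted p = 6.41e-14). For tcbk0013.j.13 they were 8.88, 9.15 and 9.33 with FSH and 6.12, 6.42 and 7.0 in Ctrl, a 6.31-fold rise (limma adjusted p = 3.51e-16). At stage I-II every FSH value of both clones lay above their stage III FSH range and every Ctrl value above their stage III Ctrl range, a difference in level that was not tested. For each, 3 of the 6 stage III Ctrl arrays were above background. Both falls were also called at stage III. Clone tcac0002.e.17 read 7.02, 7.37 and 7.78 with FSH and 7.86, 8.27 and 8.51 in Ctrl, a change of -0.83 (limma adjusted p = 0.000101). Clone tcam0002.g.21 read 9.20, 9.62 and 9.87 with FSH and 10.10, 10.23 and 10.48 in Ctrl, a change of -0.69 (limma adjusted p = 0.000556).

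A test of the difference between stages called no clone. The interaction term had a smallest limma adjusted p of 0.475, and 318 clones had an unadjusted p under 0.05. The scanner signals called 1 clone and equal block medians called 4. The difference in response, stage I-II minus stage III, was 0.34 for 1rt34l03_b_f02 (95% interval -0.29 to 0.96) and 0.68 for tcbk0013.j.13 (0.20 to 1.15), each with a limma adjusted p of 0.999. For tcac0002.e.17 it was -0.75 (-1.14 to -0.36; limma adjusted p = 0.475), and for tcam0002.g.21 it was -0.35 (-0.71 to 0.01; limma adjusted p = 0.999). These intervals are not adjusted for the number of clones, and they allow responses that differ by a factor of more than 1.5 between stages. The difference and interval of 1rt34l03_b_f02 include the Ctrl value of 8.93 on stage I-II replicate 19, which the scanner file did not show. Without that array its stage I-II rise was 3.69, beside 3.00 at stage III.

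Few clones were called between FSH and LH, given at the same dose and for the same time. The direct comparison called 5 clones in limma (0.0612%), 2 higher with FSH (0.0245%) and 3 lower (0.0367%), with 978 clones under an unadjusted p of 0.05. FSH against Ctrl had 657 such clones, so the few calls between the hormones are not read as likeness. The count of calls between the hormones moved with the setting. It was 8 (5 higher and 3 lower) with each array centred on its median or after quantile normalisation, 8 in the scanner signals (7 higher and 1 lower, 2 of the 5 among them), 1 with the control spot level as a covariate and 0 in the fit of the FSH and LH arrays alone or at an adjusted p under 0.01. LH against Ctrl gave 243 calls (2.97%), 136 higher (1.66%) and 107 lower (1.31%). That contrast and the FSH contrast share the Ctrl arrays, so their values are given side by side and no overlap is counted.

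For 3 of the 4 leading clones FSH and LH did not differ past the threshold. The intervals below are not adjusted for the number of clones, and they rest on a spread between samples that may be technical. Choosing the clones by their change with FSH also favours larger changes with FSH than with LH. The intervals therefore do not bound the difference between the hormones. Clone 1rt34l03_b_f02 read 9.90, 10.23 and 10.70 with LH (lowest, median, highest), and FSH minus LH was 0.29 (95% interval -0.15 to 0.74; limma adjusted p = 0.614). Clone tcbk0013.j.13 read 10.28, 10.88 and 11.01 with LH, a difference of -0.02 (-0.36 to 0.31; limma adjusted p = 0.972). Clone tcac0002.e.17 read 7.12, 7.30 and 7.59 with LH, a difference of -0.08 (-0.36 to 0.20; limma adjusted p = 0.863). FSH and LH arrays overlapped in each of the 3 clones. Against Ctrl, the change with LH was 3.04, 3.36 and -1.50 for these clones in the same order, beside 3.34, 3.33 and -1.58 with FSH.

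Both clones called higher with FSH than with LH differed by nearly the same amount. Clone 1rt83h14_d_d07 read 7.51, 8.15 and 8.42 with FSH, 7.16, 7.25 and 7.60 with LH, and 6.07, 6.41 and 6.70 in Ctrl. Both hormones lay above Ctrl without overlap, and FSH overlapped LH in its lowest array. FSH minus LH was 0.80 ± 0.15 (SE; 95% interval 0.50 to 1.09), 1.74-fold, with a limma adjusted p of 0.0146. Against Ctrl the clone rose 3.28-fold with FSH (limma adjusted p = 1.12e-11), and by 0.92 on the log2 scale with LH (limma adjusted p = 6.69e-05). It touched a spot 5.92 times as bright, whose part was not tested, and 4 of the 6 Ctrl arrays were above background.

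Clone tcad0009.j.11 was higher with FSH than with LH or in Ctrl. It read 7.73, 7.95 and 8.51 with FSH, 6.78, 7.23 and 7.49 with LH, and 6.97, 7.40 and 7.52 in Ctrl. The FSH arrays stood above all LH and Ctrl arrays. Before culture the 3 T0 arrays ran from 7.24 to 8.23, and the highest, replicate 2, lay within the FSH range. On that array 129 values of all clones differed by more than 1 log2 unit between table and scanner, so its value is less certain. FSH minus LH was 0.79 ± 0.15 (SE; 95% interval 0.49 to 1.09), 1.73-fold, with a limma adjusted p of 0.0146. The clone rose 1.57-fold against Ctrl (limma adjusted p = 0.00763), while LH minus Ctrl was -0.14 (95% interval -0.44 to 0.17; limma adjusted p = 0.667). At stage III its change with FSH was 0.88 (limma adjusted p = 0.000146).

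The remaining clones called between the hormones were lower with FSH than with LH. Clone tcam0002.g.21, described above, read 9.55, 9.84 and 10.12 with LH. These values lay between FSH and Ctrl on average and overlapped both at their ends. FSH minus LH was -0.60 (95% interval -0.86 to -0.35; limma adjusted p = 0.0352), and LH minus Ctrl was -0.44 (limma adjusted p = 0.0449). Clone 1rt104l03_b_f02 read 6.50, 6.91 and 7.20 with FSH, 7.20, 7.60 and 7.77 with LH, and 6.90, 7.17 and 7.46 in Ctrl. FSH minus LH was -0.65 ± 0.13 (SE; limma adjusted p = 0.0294), and neither hormone passed the test against Ctrl (limma adjusted p = 0.478 for FSH and 0.121 for LH). The Ctrl arrays lay between and overlapped both hormones. Clone tcay0006.p.19, named here because it completed the list and chosen after its values were seen, read 7.48, 7.74 and 7.91 with FSH, 8.04, 8.23 and 8.46 with LH, and 7.75, 7.81 and 8.04 in Ctrl. Its FSH minus LH difference was -0.53 ± 0.11 (SE; limma adjusted p = 0.0352). Against Ctrl it was called higher with LH, by 0.39 (limma adjusted p = 0.0372), and not called with FSH, at -0.135 (limma adjusted p = 0.925). None of the 3 clones was called lower with FSH in the scanner signals, where the difference was -0.36 for tcam0002.g.21 (limma adjusted p = 0.37), -0.33 for 1rt104l03_b_f02 (limma adjusted p = 0.328) and -0.07 for tcay0006.p.19 (limma adjusted p = 0.904). Both clones called higher kept their calls there, with differences of 0.81 for 1rt83h14_d_d07 and 0.99 for tcad0009.j.11. Neither was called in the fit of the FSH and LH arrays alone (limma adjusted p = 0.0635 each). Among 12 fits that left out a single array, 1rt83h14_d_d07 lost its call in 4 and tcad0009.j.11 in 3. Without LH replicate 31 or LH replicate 32 no clone was called between the hormones.

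**Figure D4:**
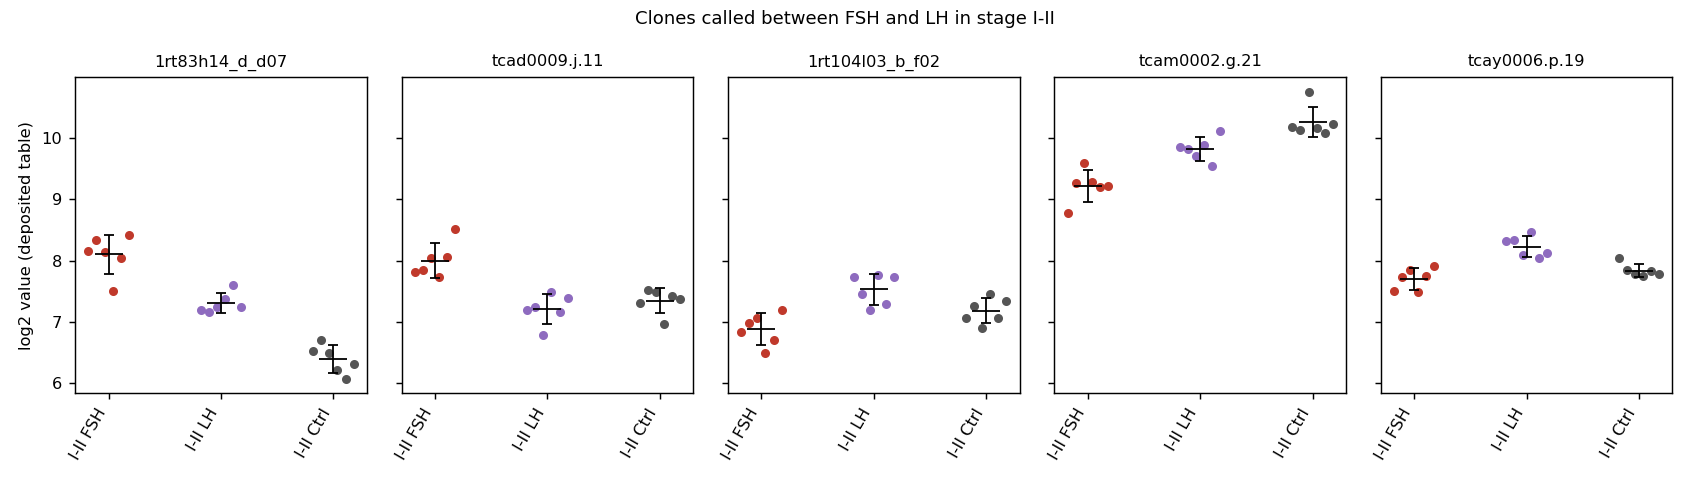
Log2 values of the 5 clones called between FSH and LH in stage I-II, 1 point per array, with mean and SD as bars, for FSH, LH and Ctrl. In tcad0009.j.11 the 6 FSH arrays stand above all LH and Ctrl arrays; in 1rt83h14_d_d07 both hormones stand above Ctrl.

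Averaged over each list, the arrays of both hormones stood away from Ctrl. The mean of the 91 clones that rose, relative to the Ctrl mean of the same stage, was 0.76, 0.83 and 0.94 on the stage I-II FSH arrays (lowest, median, highest) and 0.61, 0.67 and 0.73 on the LH arrays, while Ctrl arrays lay between -0.05 and 0.04. The mean of the 49 that fell was -0.71, -0.68 and -0.64 with FSH and -0.58, -0.46 and -0.38 with LH, with Ctrl arrays between -0.08 and 0.05. The distance of FSH from Ctrl in stage I-II was fixed by the choice of clones, which also favours FSH over LH there. Stage III arrays entered the choice only through the estimate of spread that all groups shared. At that stage the 91 clones stood at 0.50, 0.59 and 0.62 with FSH and 0.43, 0.50 and 0.55 with LH, with Ctrl between -0.05 and 0.07. The 49 clones stood at -0.64, -0.59 and -0.48 with FSH and -0.46, -0.34 and -0.28 with LH, with Ctrl between -0.06 and 0.06. At stage III the FSH and LH arrays overlapped in the first list and were separate in the second. On the 3 stage I-II T0 arrays the mean lay between 0.00 and 0.07 for the clones that rose, within the Ctrl values or just above them. For the clones that fell it lay between -0.31 and -0.20, below every stage I-II Ctrl array and above every FSH array. The 3 stage III T0 arrays stood elsewhere, between -0.34 and -0.25 for the clones that rose and between -0.89 and -0.79 for those that fell, in both cases below every stage III FSH, LH and Ctrl array. The stage I-II T0 values, too, are set against the Ctrl arrays that chose the lists.

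**Figure D5:**
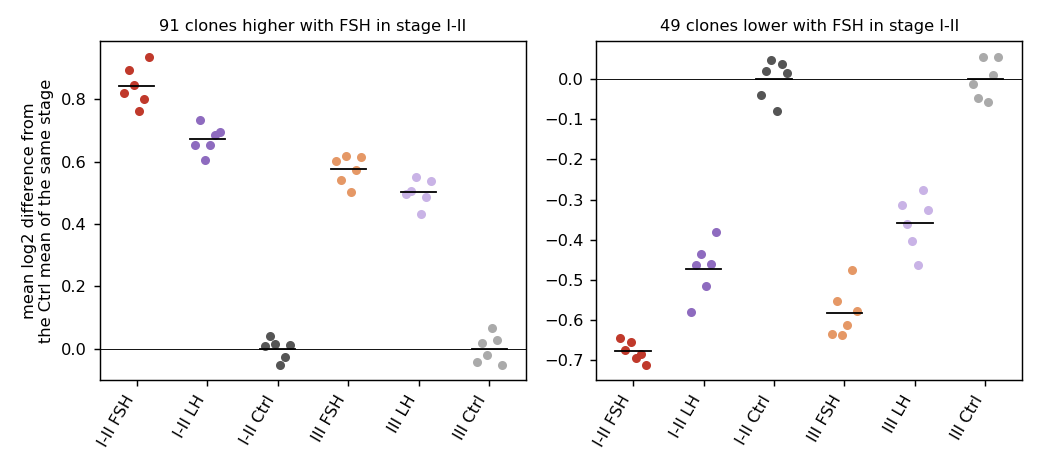
Mean log2 difference from the Ctrl mean of the same stage over the 91 clones higher (left) and the 49 clones lower (right) with FSH in stage I-II, 1 point per array and a line at the group mean, for FSH, LH and Ctrl of stages I-II and III. Stage III FSH arrays lie between 0.50 and 0.62 on the left and between -0.64 and -0.48 on the right, apart from their Ctrl arrays.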

How the data were processed

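Testis RNA was measured on 42 arrays, 1 sample each. The authors deposited a log2 table by clone, whose normalisation the sources used here do not state. They also deposited AGScan exports of spot intensity, per the file headers, 1 per array and with no background column. Of 9216 table rows, 8175 held values. The 1041 rows empty on every array, 64 named water, 128 named cvu03687 and 849 clones, were left out. No other values were filtered, no 2 arrays were identical, and the number of arrays limits the precision.

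Linear models with 8 group means over all 42 arrays were fitted to the log2 table in limma 3.58.1 (R 4.3.3) with lmFit and eBayes. The p-values were two-sided and took the Benjamini-Hochberg adjustment over the 8175 clones, comparison by comparison. Clones with an adjusted p under 0.05 are called. Every adjusted p given is from limma. Data with known changes were simulated for FSH against Ctrl in stage I-II over 8175 clones. The limma fit recovered 47% of changes of 0.5 and 98% of changes of 1 on the log2 scale (100 clones each). It made 6 false calls among the clones left unchanged. The simulated noise was independent between clones and arrays. It held none of the tilts or block differences seen on the real arrays, so these figures may not carry over to them.

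The scanner exports name positions, not clones. Clones were paired with positions by the least squared difference of their profiles over the 42 arrays, and 94.6% of pairs were also the nearest position. Consecutive IDs of a plate fell in the same spot column of a block in 95.6% of 7846 cases, where independent placing would give 8.46%. Positions A07 (64 in all) and A11 and A12 (128) were taken as water and control spots by inference from their number. Above background means above the A07 median plus 3 scaled median absolute deviations of that array. On the 12 arrays, 67.6% to 75.1% of clone positions exceeded this with FSH and 70.8% to 74.5% in Ctrl.

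The files pair no clone with a gene, and no clone ID occurs in the RefSeq genes of assembly USDA_OmykA_1.1. The gene lists and cell type marker lists set up for this tissue were therefore not testable. By the rule for such a case, the 2 greatest rises and 2 greatest falls among called clones of FSH against Ctrl and of FSH against LH in stage I-II are named. The difference between stages had no call to name, and other clones are summarised. The members and lists were chosen with earlier results of these data known. Other settings tried were fits on the compared groups alone, quantile normalisation or median centring of the table, a filter on dim clones, trended and robust moderation, array weights, scanner signals, export order as a covariate, a stricter threshold and leaving out each array. The control spot level as a covariate, equal block medians, and leaving out clones beside far brighter spots or at the highest reading were added after seeing the data.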

Additional observations from a re-analysis of the deposited data

Results flagged for a closer look

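In 48 groups of 6 arrays, 6 held a value far from the nearest of the others, by Dixon's test with a critical value of 0.625 for the gap over the range. Chance flags about 1 in 20 groups. The stage I-II Ctrl value of 8.93 for 1rt34l03_b_f02 came from replicate 19 and was absent from that array's scanner file. The highest stage I-II Ctrl value of tcam0002.g.21 was 10.76, on replicate 21. Without that array the fall with FSH was -0.94, still called. The highest stage I-II Ctrl value of tcay0006.p.19 was 8.04, again on replicate 19. On stage III Ctrl replicate 55 the values of 5.71 for 1rt83h14_d_d07 and 7.26 for tcay0006.p.19 were the lowest of their group. The control spots of stage I-II Ctrl replicate 19 read 420.0 intensity units, the highest of that group. Without replicate 19 FSH changed 119 clones in stage I-II, against 140 with it.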

How the results depend on the processing

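The directions of the 8 named clones, in the comparisons that named them, held in every setting that retained the clone, and so did the FSH calls of the 4 leading clones of stage I-II. Leaving out clones beside far brighter spots removed tcac0002.e.17 and 1rt83h14_d_d07, and the filter on dim clones removed 1rt83h14_d_d07 and 1rt104l03_b_f02, so these have no value there. The count for FSH in stage I-II, 140, was 244 with array weights, 227 with scanner signals, 211 with equal block medians and 81 at an adjusted p under 0.01, and 105 to 147 when single arrays were left out (119 without Ctrl replicate 19). In the compared groups alone it was 159, with 129 of the 140 among them. There the limma adjusted p of the 4 leading clones ran from 2.34e-12 to 4.58e-05. Clones with a mean above the median gave 116, of which 54.3% were higher, against 65.0% of the 140. FSH against LH gave 5 calls, and 0 in the fit of the compared groups alone or at the stricter threshold, where 1069 and 978 clones had an unadjusted p under 0.05. It gave 8 with quantile normalisation, median centring, trended moderation, scanner signals or export order, 9 with array weights, 1 with the control spot covariate, 13 with equal block medians, and 0 to 7 without single arrays. Without LH replicate 31 or 32 none was called, without FSH replicate 26 only 1, without FSH replicate 28, FSH replicate 30 or LH replicate 34 only 2, and without FSH replicate 25 or LH replicate 36 only 3. The stage III count of 113 was 59 in the compared groups alone, 71 at the stricter threshold, 227 with equal block medians and 95 to 137 without single arrays. The test between stages called 0, but 1 with scanner signals and 4 with equal block medians, and 0 in all 24 fits without single arrays. LH against Ctrl, 243 calls (56.0% higher), gave 652 in the compared groups alone (44.6% higher), 922 with array weights, 84 at the stricter threshold (73.8% higher), 49 with the control covariate (79.6% higher), 166 with scanner signals (70.5% higher) and 115 to 342 without single arrays. It gave 115 without LH replicate 34, 128 without LH replicate 32, 135 without Ctrl replicate 23 and 147 without Ctrl replicate 21. The cause of these differences was not tested. No paired analysis was possible because no replicate number is shared between groups. Low signals limited 12 of the 91 rises, above background on no Ctrl array.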
